A study of Homo sapiens with 26 samples.

Results

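Aminoacyl-tRNA synthetases are the enzymes that attach each amino acid to its tRNA, and the 36 rows described here name 20 cytosolic and 16 mitochondrial ones. They were chosen by row name in the 2 input count files, which hold 55353 gene rows, with names ending in 2 taken as mitochondrial. All 36 rows were found. The rule uses names and no values, although it was written with earlier results of these data known.

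The samples come from the human melanoma line SK-MEL-28. Of these, 13 were kept in salubrinal for 72 h and 13 were untreated. Salubrinal keeps the translation factor eIF2α phosphorylated and thereby switches on the integrated stress response (ISR). Input RNA was sequenced in 1 salubrinal and 1 control sample. The other 24 samples are 4 sucrose gradient fractions (polysome, 80S, 60S and 40S), each with 3 replicates of either treatment. Every title names SK-MEL-28, whereas the cell-line field carries a different numbered name in each sample. Cells were exposed to cycloheximide at 100 µg/mL for 12 min before lysis.

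In the ISR, eIF2α kinases respond to stress, one of them (GCN2) to uncharged tRNA, and translation of the transcription factor ATF4 increases. ATF4, often together with C/EBP proteins, is known to act on genes for amino acid synthesis, amino acid import and the charging of cytosolic tRNAs. Mitochondria translate their own genome with a separate set of synthetases, which nuclear genes encode and which are imported. Gars and Kars each encode the glycyl or lysyl enzyme of both compartments. Qars serves the cytosol, since mitochondrial glutaminyl-tRNA is made by amidation, and Eprs fuses the glutamyl and prolyl enzymes that are separate in mitochondria (Ears2 and Pars2).

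The cytosolic genes stood higher with salubrinal and most mitochondrial ones did not. The median log2 ratio of salubrinal over control was 0.61 over the 20 cytosolic rows and -0.18 over the 16 mitochondrial rows, beside 0.02 over all 10614 rows with at least 50 counts. Above 0 were 17 of the cytosolic rows and 5 of the mitochondrial rows, where 52.0% of all rows were above 0. At least 2-fold higher were 5 cytosolic rows (Gars, Wars, Cars, Mars and Sars) and 2 mitochondrial rows (Lars2 and Rars2), where 2.75% of all rows were that much higher. No synthetase row was at least 2-fold lower, and 3.8% of all rows were.

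With 1 input library per treatment these ratios have no replicate check, and no test was made. Ratios are of CPM, the counts of a row relative to its library size, scaled by trimmed means (TMM). The 95% intervals given with them are exact binomial ones that cover counting error only, and PCR duplicates make them too narrow. Scaling by total counts instead shifted the median of all rows by 0.93, so directions are read relative to that median, above which 17 cytosolic and 5 mitochondrial rows lay under either scaling. With that scaling Farsa and Vars, below 0 here, stood at 0.58 and 0.55. In bulk RNA a change in the number of cells of a kind and a change in RNA per cell cannot be told apart. Row names of the input files are mouse-style symbols of a reference that no label names, so CPM are compared between libraries and not between genes.

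The input files placed 10245548 counts (salubrinal) and 12068784 counts (control) on gene rows. Counts not aligned made up 27.3% (salubrinal) and 14.4% (control) of each file, and ambiguous ones 3.54% and 9.5%. The 6 ISR genes listed beside them were all higher with salubrinal, where 52.0% of all rows were above 0. Their log2 ratios ran from 1.82 (Atf4) to 3.20 (Asns, asparagine synthetase). The list was written with earlier results of these data known, so this is a description and not an independent check. Of 8 melanocyte markers 6 had at least 50 counts, led by Pmel at 13535 and 16793 counts with and without salubrinal. Mlana was at 0 in both input libraries, and Tyrp1 had 0 and 5 counts. The 6 had a median log2 ratio of -1.01. At least 2-fold lower with salubrinal were 4 of them, where 3.8% of all rows were that much lower. The part of these markers in the synthetase values was not tested. Of the fibroblast, keratinocyte and leukocyte markers, Lum (43 and 42 counts) and Cd68 (60 and 49) alone reached 50 counts over both libraries. Col1a1, Krt1 and Cd3e were at 0 in both, Krt5 had 3 and 3 counts and Krt14 had 20 and 3. Whether the unnamed reference of the input files bears on counts of 0, such as those of Mlana and Col1a1, was not tested.

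The promoter letters that ATF4 and C/EBP proteins are known to read together were looked for in the RefSeq promoter windows of the human genes (GRCh38.p14, 250 bases before to 50 after each start site), and the stretches that hold them are shown because the letters were more frequent among cytosolic than mitochondrial genes. The letters TGATGNAA were searched on both strands. Windows were found for 30 of the 36 genes, 16 cytosolic and 14 mitochondrial, and 9 of these genes had more than 1 window. A match was found in 7 cytosolic genes and 1 mitochondrial gene. Each is shown 5′ to 3′ on the strand that reads the letters, with the match in capitals.

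AARS1, chr16:70289675-70289704, + strand: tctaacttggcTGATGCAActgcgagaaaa
CARS1, chr11:3057407-3057436, + strand: ttcctagaatcTGATGCAAccgccgccccg
GARS1, chr7:30594834-30594863, - strand: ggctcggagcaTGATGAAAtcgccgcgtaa
IARS1, chr9:92293692-92293721, + strand: gcgcacggaggTGATGCAAcgcgctgaaaa
MARS1, chr12:57488053-57488082, - strand: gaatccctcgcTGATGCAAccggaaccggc
NARS1, chr18:57621804-57621833, - strand: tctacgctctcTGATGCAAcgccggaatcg
TARS1, chr5:33440956-33440985, - strand: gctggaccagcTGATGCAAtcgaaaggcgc
YARS2, chr12:32756076-32756105, - strand: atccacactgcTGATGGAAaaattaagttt

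The match was thus held by 7 of 16 cytosolic genes (43.8%) and by 1 of 14 mitochondrial genes (7.14%), beside 4.46% of all 27305 genes and 3.62% of all 35116 windows in the same table. Of the 7 cytosolic matches 6 read TGATGCAA, which 1.08% of all genes hold. Of the same 7, 5 began within 15 bases of the start site: Cars at -2, Mars at -4, Iars at -13, Tars at 3 and Nars at 15. The Gars match began at -33 and the Aars match at -187. The Yars2 match began at -197. A match is a description of these letters and not evidence that a factor binds there.

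**Figure D1:**
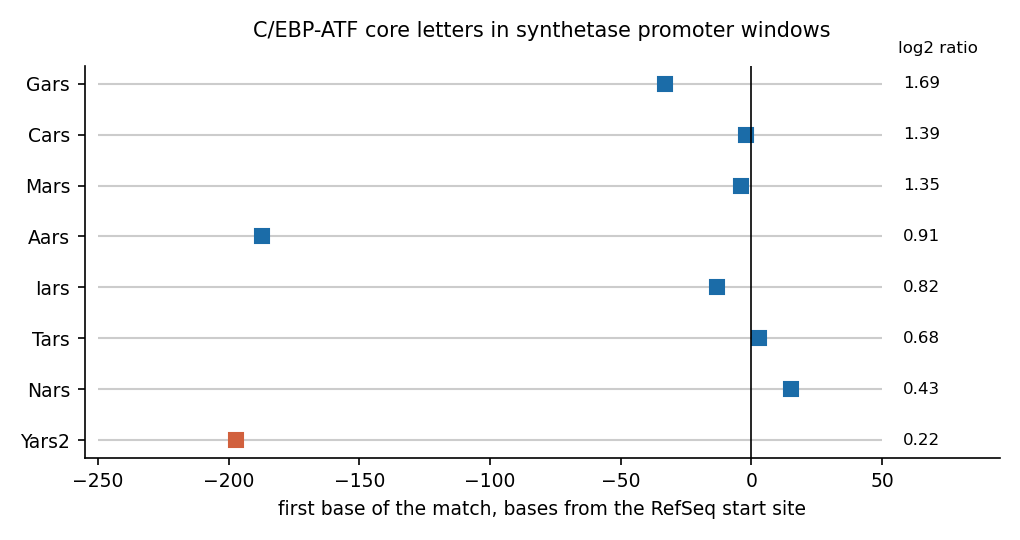
Position of the first base of each TGATGNAA match (squares; blue cytosolic, orange mitochondrial) within the window of 250 bases before to 50 after the RefSeq start site (grey lines, x axis in bases), with the input log2 ratio of the gene at the right. Cars, Mars, Iars, Tars and Nars have the match within 15 bases of the start, and Aars and Yars2 have it at -187 and -197.

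The 16 cytosolic genes with a window included 10 of a list of 12 genes that are often named as ATF4 targets (Aars, Cars, Eprs, Gars, Iars, Lars, Mars, Nars, Sars, Tars, Wars and Yars). All 7 matches lay in those 10 genes and none in the other 6 (Farsa, Farsb, Hars, Kars, Qars and Rars). Because the list was written with earlier results of these data known, this is a description and not an independent check. Among the 10, the 7 genes with a match had a median log2 ratio of 0.91 and the 3 without (Eprs, Sars and Wars) one of 1.22. Over all 16 cytosolic genes with a window the order was the other way, with a median of 0.91 for the 7 with a match and 0.46 for the 9 without.

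Gars, the glycyl-tRNA synthetase gene, had the highest ratio of the cytosolic rows. It held 9845 counts (693 CPM) with salubrinal and 1866 counts (214 CPM) without. Its log2 ratio was 1.69 (95% interval 1.62 to 1.77), which is 3.24-fold, and it lay at percentile 99.6 of all rows with at least 50 counts. Kars, the other synthetase gene that supplies both compartments, was at 145 CPM with salubrinal and 125 CPM without, from 2063 and 1092 counts, with a log2 ratio of 0.21 (0.11 to 0.32). The ratio of Gars exceeded that of Kars by 1.48 on the log2 scale (1.35 to 1.61), so the pair of dual enzymes did not move alike.

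Wars charges tryptophan and is also known as an interferon-induced gene. It held 4570 counts (322 CPM) against 883 in the control (101 CPM), a log2 ratio of 1.67 (1.56 to 1.77). Gars and Wars did not differ beyond counting error, with a difference of 0.03 (-0.10 to 0.15). Cars, for cysteine, held 1229 counts (86.6 CPM) with the compound and 286 (32.8 CPM) in the control, a log2 ratio of 1.39 (1.21 to 1.59). Mars, for methionine, held 3444 counts (243 CPM) against 829 (95.2 CPM), a log2 ratio of 1.35 (1.24 to 1.46).

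In the RefSeq table MARS1 overlaps ARHGAP9 and DDIT3, the gene of the stress factor CHOP, by position. The row Ddit3 held 418 and 57 input counts, a log2 ratio of 2.14. YARS1, CARS2, EARS2 and FARS2 also overlap protein-coding genes there. These are human positions, while the input rows carry mouse-style symbols of an unnamed reference. Whether reads were shared between overlapping genes in the input was not tested.

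Sars, for serine, held 5336 counts (376 CPM) with salubrinal and 1400 in the control (161 CPM), with a ratio on the log2 scale of 1.22 (1.14 to 1.31). Yars, for tyrosine, held 2944 counts (207 CPM) against 907 (104 CPM) and stood just under 2-fold, at 1.99-fold and a log2 ratio of 0.99 (0.89 to 1.10). These values put 6 cytosolic genes at or near 2-fold or more.

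The next 8 genes lay between 0.43 and 0.91 on the log2 scale. In order these were Aars (0.91), Eprs (0.85), Iars (0.82), Tars (0.68), Lars (0.53), Rars (0.50), Farsb (0.46) and Nars (0.43), which charge alanine, glutamate and proline, isoleucine, threonine, leucine, arginine, phenylalanine and asparagine. Eprs held 4528 counts (319 CPM) against 1539 (177 CPM), with an interval of 0.77 to 0.94. No 2 neighbours in this run differed beyond counting error, and neither did Yars and Aars at its upper edge (0.09, -0.06 to 0.23). Of the 19 neighbour pairs in the cytosolic order 5 did differ. Among them Sars exceeded Yars (0.23, 0.09 to 0.37) and Nars exceeded Kars (0.21, 0.06 to 0.36).

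Kars, Hars (0.17) and Dars (0.15), the lysyl, histidyl and aspartyl enzymes, stood close to 0 with intervals just above it. Qars, for glutamine, held 1102 counts (77.6 CPM) against 711 (81.6 CPM), a log2 ratio of -0.07 (-0.21 to 0.07) whose interval includes 0. Farsa, which encodes the catalytic subunit of the phenylalanyl enzyme, held 439 counts (30.9 CPM) against 346 (39.7 CPM), a log2 ratio of -0.36 (-0.57 to -0.15). Vars, for valine, was the lowest at -0.39 (-0.57 to -0.22), from 604 counts (42.5 CPM) against 486 (55.8 CPM). Farsa and Vars were the 2 cytosolic rows whose interval lay wholly below 0.

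The subunits of the phenylalanyl-tRNA synthetase thus lay on opposite sides of the median of all rows. Farsb, the other subunit, stood at 146 CPM with salubrinal and 106 CPM without. The difference between Farsb and Farsa was 0.82 on the log2 scale (0.58 to 1.06).

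**Figure D2:**
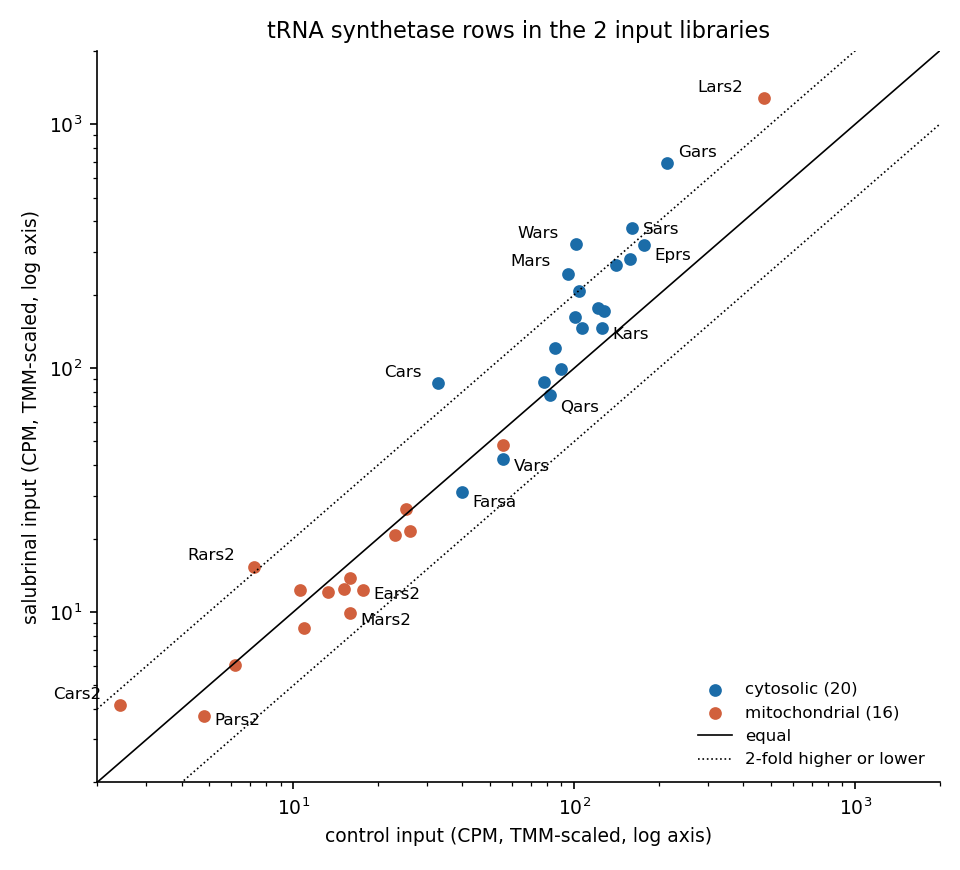
CPM of the 36 synthetase rows in the control input (x axis, log scale) and the salubrinal input (y axis, log scale), 1 point per row, blue for cytosolic and orange for mitochondrial enzymes. Gars, Wars, Cars, Mars, Sars, Lars2 and Rars2 lie above the upper dotted line of 2-fold, and no row lies below the lower one.

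**Figure D3:**
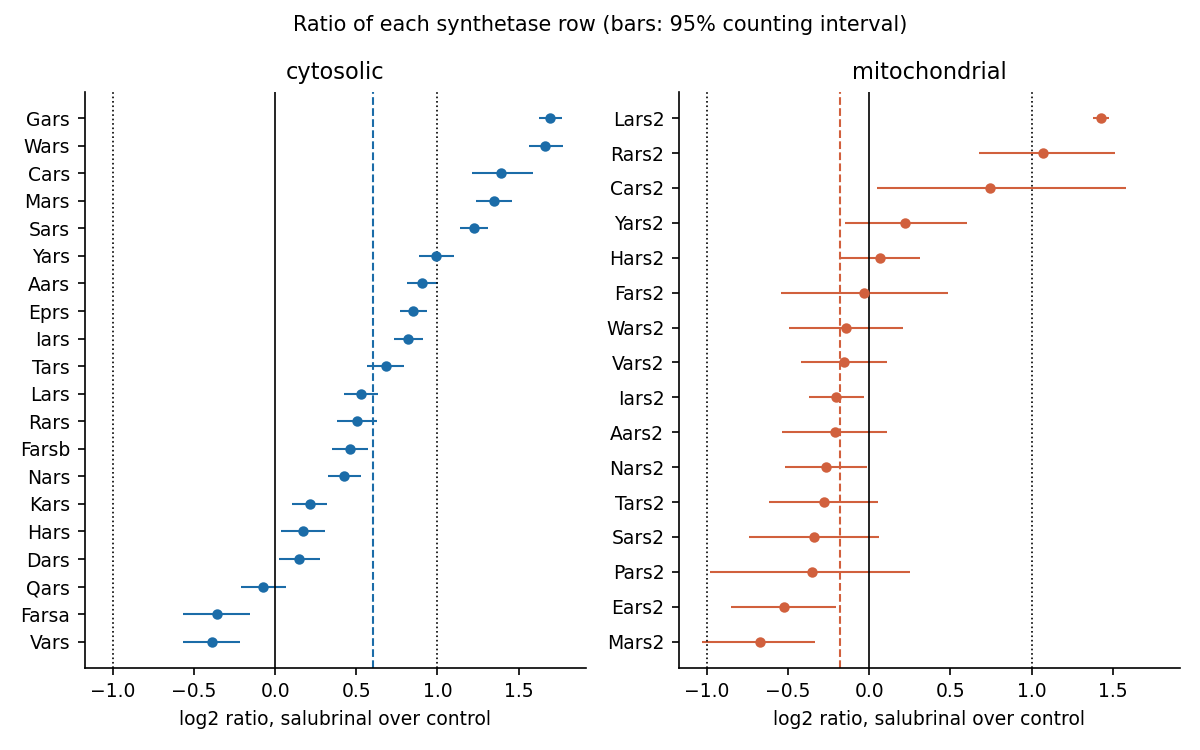
Log2 ratio of salubrinal over control input for each cytosolic (left) and mitochondrial (right) row, in order, with 95% counting intervals as bars, the median of each group as a dashed line and 2-fold as dotted lines. Gars (1.69) and Wars (1.67) lead the cytosolic rows, and Lars2 (1.43) and Rars2 (1.07) the mitochondrial ones.

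The 12 genes often named as ATF4 targets had a median log2 ratio of 0.95 and a range from 0.43 to 1.69, and all 12 were above 0. The other 8 cytosolic genes had a median of 0.16 and a range from -0.39 to 0.50, with 5 above 0. The ranges met at the edge, where Nars (0.43) on the list stood below Rars (0.50) and Farsb (0.46) off it. Summed over genes, the listed rows went from 1535 to 3299 CPM and the others from 662 to 751 CPM. The list was written with earlier results of these data known and is a description.

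Grouping by enzyme type gave smaller contrasts with wide overlap. The 9 cytosolic class I enzymes had a median of 0.82 and the 10 class II enzymes one of 0.44, with Eprs, which holds a domain of each class, left out. Ranges ran from -0.39 to 1.67 and from -0.36 to 1.69. The 8 enzymes of the multi-synthetase complex, a cytosolic assembly of synthetases, had a median of 0.52 and the other 12 one of 0.79. Mars (1.35) was the highest member of the complex and Qars (-0.07) the lowest.

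By the amino acid charged, the 10 cytosolic rows for amino acids that human cells can make had a median of 0.88 (range -0.07 to 1.69). The 10 rows for amino acids taken from the diet had a median of 0.50 (range -0.39 to 1.67). Both groups held members past 2-fold, Gars, Cars and Sars in the first and Wars and Mars in the second. In the mitochondrial set the same split gave medians of -0.24 and -0.15, over 8 rows each.

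Lars2, named for the mitochondrial leucyl enzyme, was the highest mitochondrial row. It held 18093 counts (1274 CPM) with salubrinal and 4130 (474 CPM) in the control, while the 15 other mitochondrial rows together held 3235 and 2181. Its log2 ratio was 1.43 (1.38 to 1.48). The human row LARS2 was at 0 in all 24 fraction files. Only 6 of the 16 mitochondrial rows held counts there, as did 10185 of all 56111 rows outside ribosomal RNA.

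Rows of ribosomal RNA are set beside Lars2, which took 0.177% of gene-row counts with salubrinal and 0.0342% without. The log2 ratio was 0.06 for mt-Rnr2, -0.27 for mt-Rnr1, -0.51 for Gm42418 and -3.09 for CT010467.1 (12.8% and 56.7% of gene-row counts). These ribosomal RNA rows thus differed widely among themselves. Whether Lars2 counts come from the synthetase mRNA was not tested, and group values are given with and without it.

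Rars2, for mitochondrial arginyl-tRNA, held 218 counts (15.4 CPM) against 63 (7.23 CPM), a log2 ratio of 1.07 (0.68 to 1.51). Cars2, for cysteine, rested on few counts, 59 (4.16 CPM) against 21 (2.41 CPM), and its log2 ratio of 0.74 had an interval from 0.05 to 1.58. Lars2, Rars2 and Cars2 were the 3 mitochondrial rows whose interval lay above 0.

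At the low end Mars2, for methionine, held 141 counts (9.93 CPM) with salubrinal and 139 (16.0 CPM) in the control, its log2 ratio being -0.67 (-1.03 to -0.34). Ears2, for glutamate, held 174 (12.3 CPM) against 154 (17.7 CPM), a log2 ratio of -0.52 (-0.85 to -0.21). Pars2, for proline, held 53 (3.73 CPM) against 42 (4.82 CPM), a log2 ratio of -0.35 whose interval, -0.98 to 0.25, includes 0.

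The remaining mitochondrial rows lay between -0.34 and 0.22. Sars2 (-0.34), Tars2 (-0.28), Nars2 (-0.27), Aars2 (-0.21), Iars2 (-0.20), Vars2 (-0.15), Wars2 (-0.14) and Fars2 (-0.03) were below 0, and Hars2 (0.06) and Yars2 (0.22) above. The intervals of Nars2 (-0.52 to -0.01) and Iars2 (-0.37 to -0.03) excluded 0 and those of the other 8 did not. No 2 neighbours in the order of the 16 mitochondrial rows differed beyond counting error. Their counts were lower, with a median of 298 over both input libraries against 3362 for cytosolic rows, and their intervals wider.

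Without Lars2 the mitochondrial median was -0.20. The summed mitochondrial rows without Lars2 went from 250 to 228 CPM, a log2 ratio of -0.14 (-0.21 to -0.06), and with it from 725 to 1502 CPM (1.05). The summed cytosolic rows went from 2196 to 4051 CPM, a log2 ratio of 0.88 (0.86 to 0.91). The ratio of the cytosolic sum thus exceeded that of the mitochondrial sum without Lars2 by 1.02 on the log2 scale (0.94 to 1.10) and was below that of the sum with Lars2.

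**Figure D4:**
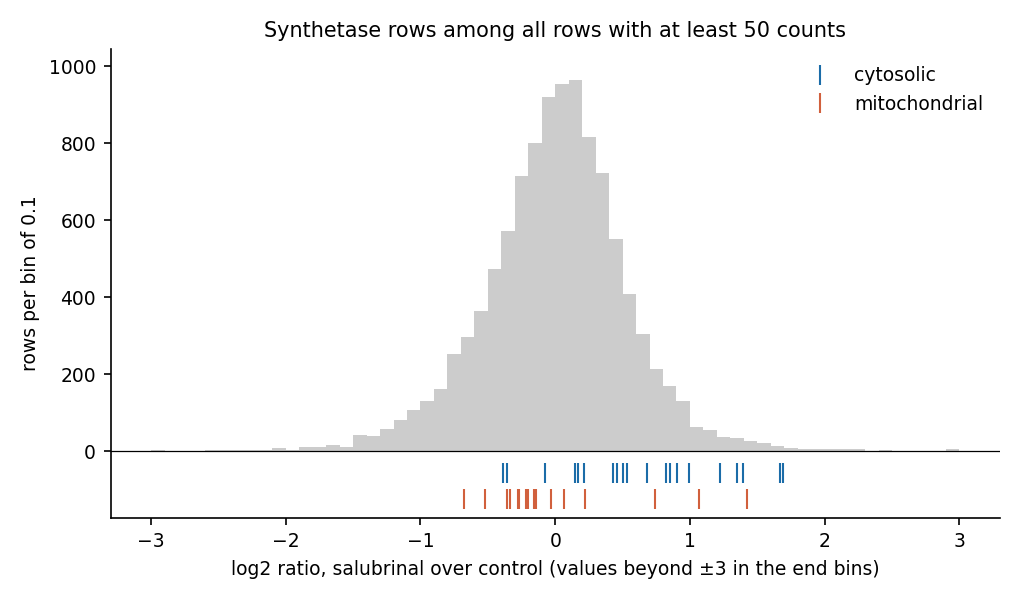
Distribution of the log2 ratio of salubrinal over control input across the 10614 rows with at least 50 counts (grey bars, rows per bin of 0.1), with cytosolic (blue) and mitochondrial (orange) synthetase rows as ticks below. The cytosolic ticks extend to 1.69, while 11 of the 16 mitochondrial ticks lie below 0.

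Comparing the enzymes of 1 amino acid removes the scaling, since the difference then depends on the 4 counts alone. All differences between rows are log2 conditional odds ratios of the raw counts with no prior count, so they can depart slightly from the difference of the printed ratios. There were 17 such pairs over 16 amino acids, with Eprs paired to both Ears2 and Pars2, and Farsa and Farsb each paired to Fars2. In 10 pairs the cytosolic enzyme had the higher ratio with an interval above 0. In 2 pairs the mitochondrial enzyme did, and in 5 the interval included 0.

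Methionine gave the widest gap: Mars exceeded Mars2 by 2.03 on the log2 scale (1.67 to 2.40). Tryptophan followed at 1.81 (1.44 to 2.18), serine at 1.57 (1.16 to 1.98), glutamate at 1.38 (1.05 to 1.71) and proline at 1.22 (0.59 to 1.84). Alanine (1.12), isoleucine (1.02), threonine (0.96), tyrosine (0.77) and asparagine (0.69) made up the rest of the 10.

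The 2 exceptions were leucine, where Lars was below Lars2 by 0.89 (difference -0.89, -1.01 to -0.78), and arginine, where Rars was below Rars2 (difference -0.58, -1.03 to -0.15). The 5 pairs with an interval that included 0 were cysteine (0.61, -0.20 to 1.38), histidine (0.11, -0.18 to 0.39), valine (-0.23, -0.56 to 0.08) and the pairs of Farsb (0.49, -0.04 to 1.01) and Farsa (-0.33, -0.89 to 0.22) with Fars2. For cysteine both enzymes had ratios above 0, and the 21 control counts of Cars2 set the width.

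**Figure D5:**
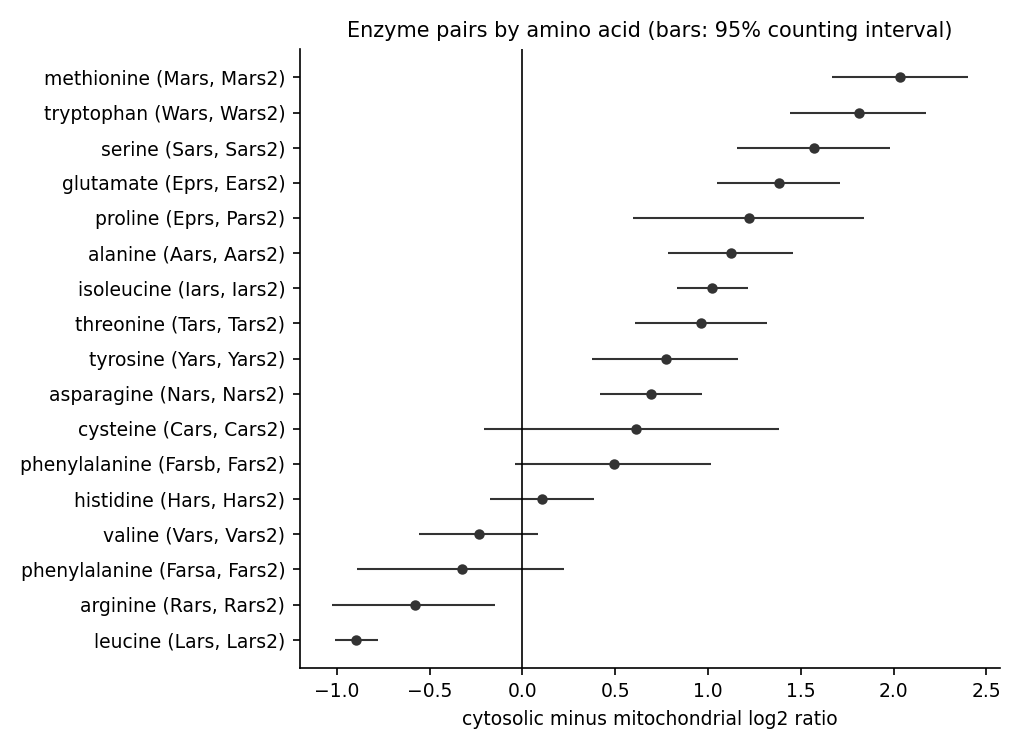
Difference of the log2 ratios (salubrinal over control input) of the cytosolic and the mitochondrial enzyme for each amino acid (x axis), in order, with 95% counting intervals as bars. Methionine (2.03) and tryptophan (1.81) lie farthest to the right, and leucine (-0.89) and arginine (-0.58) lie wholly to the left of 0.

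Other genes of tRNA charging and maturation had medians closer to that of all rows. The non-enzyme members of the multi-synthetase complex, Aimp1, Aimp2 and Eef1e1, had a median of -0.10, with Eef1e1 highest at 0.20 and Aimp2 lowest at -0.41. Of 4 measured further genes of mitochondrial charging, Qrsl1, a subunit of the enzyme that amidates glutamyl-tRNA, stood at 0.91 (0.48 to 1.40) and its partner subunit Gatb at -0.25. Of 3 measured synthetase-like and editing genes, Dtd1, which removes D-amino acids from tRNA, was highest at 0.58 and Sepsecs, of selenocysteine synthesis, lowest at -0.13.

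Of 23 tRNA maturation genes 15 had at least 50 counts, with a median of 0.11. Of the 15, 2 were at least 2-fold higher and none at least 2-fold lower, where 2.75% and 3.8% of all rows were. Tsen15, of the tRNA splicing endonuclease, stood at 1.51 (0.84 to 2.40) from 88 and 18 counts, and Xpot, the tRNA export receptor, at 1.15 (1.02 to 1.28) from 2274 and 629. Pop7, an RNase P subunit, was lowest at -0.60. Of the genes that sense uncharged tRNA, Eif2ak4 (GCN2) stood at 0.35 (0.19 to 0.50) and its activator Gcn1 at -0.46 (-0.56 to -0.36).

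The gradient fractions held almost no synthetase counts. Over the 24 files, which use human symbols, the 36 rows held 188 counts among 289242 outside ribosomal RNA, 81 with salubrinal and 107 without. All rows outside ribosomal RNA held 86990 counts with salubrinal and 202252 without. Of the 36 rows 17 were at 0 in every file, among them AARS, EPRS, IARS, LARS, RARS and VARS. The other 19 held counts, as did 10185 of all 56111 rows outside ribosomal RNA. Being at 0 in every file was thus not particular to synthetase rows. MARS held 97 counts, HARS 21 and KARS 19. No synthetase row passed the filter on low counts in any of the 4 fractions, where edgeR called 3.73% (polysome), 12.7% (80S), 9.83% (60S) and 8.0% (40S) of the rows tested.

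The 4 fraction files of a replicate matched within sampling noise outside ribosomal RNA rows, with a chi-square per degree of freedom of 0.937 to 1.03 in the 6 sets. The control 40S files titled replicates 1 and 2 were placed with the other fractions of replicates 2 and 1, which they matched. With the 4 files of a set summed into 1 library, MARS was the 1 synthetase row that passed the filter on low counts. It held 4, 2 and 48 counts in the salubrinal libraries and 16, 3 and 24 in the control libraries. On the CPM scale these were 6.43, 8.05 and 9.21 against 2.31, 1.82 and 3.20, while the counts themselves overlapped between the groups. The values of 6.43 and 8.05 rest on 4 and 2 counts.

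MARS was higher with salubrinal by 1.70 on the log2 scale (edgeR quasi-likelihood test, Benjamini-Hochberg adjusted p = 0.00214), where 5.7% of 913 rows were called. Its SE of 0.41 was back-calculated from the unadjusted p of that test with a normal quantile and is not an estimate from the fit. The call was lost without control replicate 1 (adjusted p = 0.125), control replicate 3 (0.0738) or salubrinal replicate 3 (0.446) in edgeR's test. It was also lost with no filter (1.52, edgeR adjusted p = 0.634), and without the 40S files MARS did not pass the filter. DESeq2 gave 1.56 (adjusted p = 0.228), where its median over all rows was 1.13. With library sizes alone the value was 0.37 (edgeR adjusted p = 0.921), while the median of all rows moved from -0.07 to -1.30. DDIT3, an overlapping gene, held 1, 0 and 15 counts with salubrinal and 8, 3 and 10 without. ARHGAP9, the other overlapping protein-coding gene, held 0 counts. From which gene the MARS counts come was not tested. Whether the replicates were grown separately is not labelled, so this p measures only the spread between these libraries.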

How the data were processed

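All values come from raw read counts per gene row that the authors deposited, 1 file per sample. The submitters' processing notes name hg19 as the build and list HTSeq 0.5.3p3, DESeq, SAMtools 0.1.19.24, STAR and FastQC 0.11.5. The row names of the input files are nevertheless mouse-style symbols, and no label names their reference. Libraries were stranded total RNA, per the labels' protocols, and no source used here gives the strand setting. Rows naming no gene were left out, and gene rows held 7.06% (salubrinal input), 5.94% (control input) and 4.72 to 5.79% (fractions) of counts.

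Input ratios were taken on the log2 scale after TMM scaling, adding a prior count of 2. Their intervals were exact conditional binomial ones, and groups used rows with at least 50 counts. Fractions were compared in R 4.3.3 by the quasi-likelihood test of edgeR 4.0.16 (filterByExpr, TMM, threshold 0.05), with DESeq2 1.42.0 as an alternative. Scripts were tested on simulated data. RefSeq promoter windows (GRCh38.p14) were matched by symbol for 30 of 36 genes. The members, lists and alternatives were chosen with earlier results of these data known. Every member is accounted for. Full values were given for the 6 highest and 3 lowest cytosolic rows, the 3 highest and 3 lowest mitochondrial rows, and Gars, Kars, Qars, Eprs and Lars2. From other lists the highest and lowest were named, and Ddit3, Xpot and single marker genes were chosen after their values were seen. The fit with library sizes alone and the differences of Farsb from Farsa and Gars from Kars were added after the data were seen.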

Additional observations from a re-analysis of the deposited data

How the results depend on the processing

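Scaling the input by RLE size factors, by TMM without ribosomal RNA rows or with a prior count of 0.5 kept the class medians, the counts past 2-fold and all 36 ratios within their counting intervals. Scaling by total counts moved the median of all rows by 0.93. It gave a cytosolic median of 1.55 with 17 rows at least 2-fold higher, and a mitochondrial median of 0.76 with 4. Under each of these settings 17 cytosolic and 5 mitochondrial rows were above the median of all rows. With at least 500 counts, or without Lars2, 1 mitochondrial row was at least 2-fold higher. With TGATGCAA alone the cytosolic genes with a match numbered 6 and the mitochondrial ones 0.

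In the summed fraction files 0 synthetase rows were called with DESeq2, with no filter, with library sizes alone (a setting chosen after seeing the data) and without the 40S files, where MARS was not tested. Before adjustment, 1, 2 and 0 synthetase rows had a p under 0.05 in the first 3 of these settings, beside 87, 528 and 0 of all rows. With no filter 19 synthetase rows and 10224 rows in all were tested. The 2 synthetase rows there were MARS, higher, and WARS2, lower (-3.99, from 0 counts with salubrinal and 8 without). Leaving out 1 replicate gave 0 to 1 calls, with MARS at 1.30 to 1.95. With the replicate block MARS stood at 1.55 (edgeR adjusted p = 0.0486), and the calls over all rows went from 52 to 24. Same-numbered libraries were not taken as pairs, since their deviations correlated at -0.02, 0.21 and 0.36. Fraction files held 361480 to 693970 counts on gene rows, of which 864 to 23679 lay outside ribosomal RNA rows, and 188 synthetase counts in all.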

Other observations

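HARS1 and HARS2, the cytosolic and mitochondrial histidyl enzymes, start next to each other on opposite strands. Their promoter windows, chr5:140691321-140691620 on the - strand and chr5:140691205-140691504 on the + strand (GRCh38.p14), overlap. Their input log2 ratios, 0.17 for Hars and 0.06 for Hars2, were the closest of the 17 pairs. The difference was 0.11 (-0.18 to 0.39), an interval that overlaps that of the valine pair (-0.23, -0.56 to 0.08). Whether the shared position bears on these ratios was not tested.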
